A study of Mus musculus with 18 samples.

Results

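Cacna1c, Cacna1g, Cacna1h, Cacnb2, Cacna2d1 and Cacng6 encode subunits of voltage-gated calcium channels, and their transcripts were followed in the ventricle of lean mice and of leptin-deficient mice on 3 regimens. These 6 genes were taken by name, as the probe sets whose platform symbol was one of them, out of 18193 genes with a probe set. They had 14 of the 34945 probe sets that carried a single gene symbol. Where a gene had several probe sets, the one that stands for it was chosen by its mean signal over all 18 arrays, the highest being taken. That mean was 695 for Cacna1c (130 for its other set), 385 for Cacnb2 (167 for the other), 827 for Cacna2d1 (191 for the next of its 5 sets), 43.6 for Cacna1h (5.61 for the other) and 32.7 for Cacng6 (26.1 for the other). Cacna1g had 1 probe set, with a mean of 27.1. These means describe how the sets were picked and are no result.

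The RNA came from ventricular myocardium, and each array gave 1 linear signal per probe set. All ob/ob mice carry a mutated leptin gene on the C57Bl/6J background and were 6 months old when the regimens began. They continued to eat ad libitum (4 arrays), were calorie restricted to the food intake of the leptin group (5 arrays), or received leptin from osmotic mini-pumps (5 arrays), each for 1 month. Wild type C57Bl/6J mice of 6 to 8 months were the lean controls (4 arrays), so their age was not exactly matched. The labels do not say whether each array was a separate mouse, and p-values therefore measure the spread between these arrays.

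Voltage-gated calcium channels open when a cell depolarises and let calcium in. The pore is a single large alpha1 subunit. Cacna1c encodes the pore of the L-type channel, whose current starts contraction in ventricular myocytes, while Cacna1g and Cacna1h encode pores of T-type channels, which open at more negative voltages and are best known from pacemaker and embryonic heart cells. Beta subunits such as Cacnb2 bind the pore from the inside and bring it to the membrane, alpha2delta subunits such as Cacna2d1 sit on its outer face, and gamma subunits are membrane proteins that associate with some channels. Cacng6 is a gamma subunit of striated muscle.

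Signals were alike across arrays: pairwise correlations of the log2 values ranged from 0.943 to 0.971, and the median signal from 22.3 to 31.8. These values do not measure RNA integrity. All 12 ventricular cardiomyocyte markers passed the filter on low signals, with a summed signal of 65499 to 96994 per array. The filter uses the mean over all arrays, so passing it cannot tell ventricle from atrium in any array. Atrial transcripts were uneven. The summed signal of 9 atrial markers was 16135 and 17066 in calorie restricted arrays 2 and 3, against 1587 to 4219 in the other 16 arrays, and results that rest on these 2 arrays are given with and without them. In RNA from whole tissue, fewer cells of a type and less RNA per cell cannot be told apart.

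Of the 6 genes, Cacng6 had the widest group differences: its signal was about doubled in ad libitum ob/ob ventricle over wild type, was lower again with leptin, and stayed above wild type with calorie restriction. Cacna1h and Cacna2d1 were lower with leptin than with calorie restriction, and Cacna1h and Cacnb2 were higher with calorie restriction than in wild type. The set that stands for Cacna1c passed the test in no comparison, but the gene's second probe set fell with calorie restriction. Differences are log2 changes of signal plus 5.13, a pseudocount that shrinks the change of dim sets, given ± SE. A gene counts as called where limma's adjusted p, by Benjamini-Hochberg over 13359 genes, was under 0.05.

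**Figure D1:**
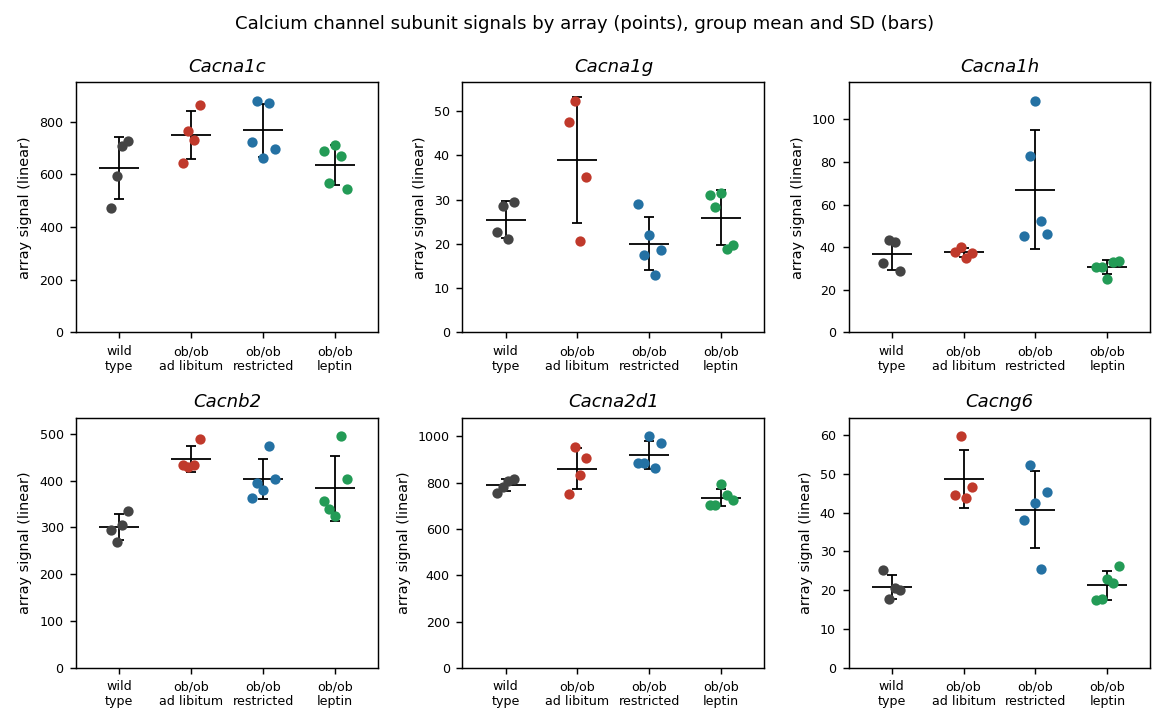
Linear array signal (y axis) of the probe set that stands for each of the 6 genes, in the 4 groups (x axis). Points are arrays, the wide bar is the group mean and the whiskers are 1 SD; Cacng6 is at 43.7 to 59.7 in ad libitum ob/ob and at 17.7 to 25.2 in wild type.

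Between ad libitum ob/ob and wild type ventricle, 1 of the 6 genes was called, Cacng6, which rose, while 0.299% of all tested genes were called. The groups did not overlap for 2 of the 6, Cacng6 and Cacnb2, both higher in ob/ob, and for 7.06% of all genes. All 6 changes were positive, with a median of 0.37 against 0.0022 over all genes. Of the 6, 2 had been named from earlier results of these data, Cacng6 for its rise here and its fall with leptin and Cacnb2 for its rise here. Their values in those comparisons are no independent support, nor are the counts and medians that include them. The changes of the remaining genes here ranged from 0.05 (Cacna1h) to 0.47 (Cacna1g).

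Leptin against ad libitum feeding gave 1 call, a fall of Cacng6, with 0.644% of all genes called. Cacng6 and Cacna1h, 2 of the 6, did not overlap between these groups (5.34% of all genes), and all 6 changes were negative, with a median of -0.25 against -0.012 over all genes. Calorie restriction against ad libitum feeding gave 0 calls among the 6 by limma, with 5.42% of all genes called. An unadjusted p under 0.05 was found for 2 of the 6, Cacna1g and Cacna1h, and for 2557 of all 13359 genes. Cacna1h was the 1 gene without overlap (9.21% of all genes). All 3 comparisons so far share the 4 ad libitum arrays, which enter the first with the opposite sign, so the positive changes there and the negative changes with leptin are not separate observations. The comparisons with wild type likewise share the 4 wild type arrays.

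Leptin against calorie restriction, the comparison at matched food intake, gave 3 calls, all falls: Cacna1h, Cacna2d1 and Cacng6. Over all genes 13.6% were called. Cacna1h and Cacna2d1 did not overlap between these groups, against 10.9% of all genes. Calorie restriction against wild type also gave 3 calls, all rises (Cacna1h, Cacnb2 and Cacng6), with 11.3% of all genes called, and 4 of the 6 genes did not overlap, these 3 and Cacna2d1, against 13.6% of all genes. Leptin-treated ob/ob against wild type gave 0 calls among the 6 by limma, with 0.00749% of all genes called. An unadjusted p under 0.05 was found for 1 of the 6, Cacnb2, and for 1337 of all 13359 genes. No gene of the 6 was free of overlap (3.24% of all genes were).

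**Figure D2:**
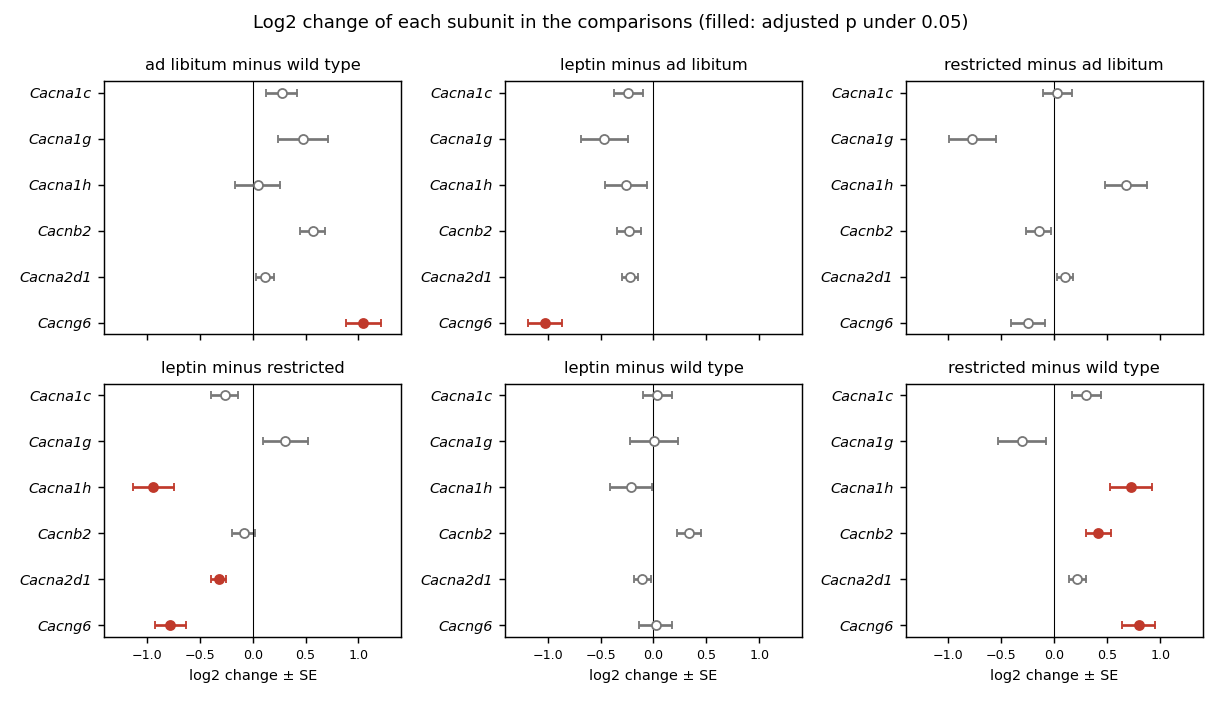
Log2 change (x axis) of the 6 genes (y axis) in the 6 comparisons, with whiskers of 1 SE; filled red points have an adjusted p under 0.05 and open points do not. The 3 called genes of the leptin against restriction panel all lie below 0, and the 3 of the restriction against wild type panel all lie above 0.

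At the level of single probe sets, 12 of the 14 passed the filter, and the second Cacna1h set and the dimmest Cacna2d1 set did not. Adjusted over 23108 probe sets, 2 of the 12 were called between ad libitum ob/ob and wild type (0.151% of all sets), both of Cacng6. The second Cacng6 set passed the filter only through its ob/ob groups. Its calls against wild type, here and with restriction, are in the counts but lend no support. Leptin against ad libitum gave 1 (0.329% of all sets), and restriction against ad libitum gave 1 (4.2%), the second Cacna1c set. Leptin against restriction gave 5 of 12 (11.4% of all sets), restriction against wild type gave 5 of 12 (9.48%), and leptin against wild type gave 0 of 12 (0.0216%).

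Cacna1c, the L-type pore, had a signal on its first probe set (1421297_a_at) of 473, 593, 708 and 724 in wild type. Ad libitum ob/ob arrays had 642, 765, 730 and 863. The restricted arrays had 722, 878, 661, 871 and 697, and the leptin arrays 689, 568, 709, 670 and 543. All 4 groups overlapped. In order of the group means, wild type (625 ± 117, SD, n = 4) and leptin (636 ± 75.2, n = 5) were lowest, ad libitum (750 ± 91.2, n = 4) and restriction (766 ± 102, n = 5) highest, and no pair of groups differed by the adjusted p. The largest change was restriction over wild type, 0.30 ± 0.14 (adjusted p = 0.181).

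The second Cacna1c probe set (1435730_at) showed another pattern. It had 101, 117, 136 and 163 in wild type, 109, 155, 155 and 181 in ad libitum ob/ob and 176, 165, 157, 173 and 120 with leptin. With calorie restriction it had 68.8, 89.9, 81.8, 97.3 and 89.2. All 5 restricted arrays were below every array of the other 3 groups. The set fell by 0.76 ± 0.16 from ad libitum to restriction (limma adjusted p = 0.0113 over all probe sets) and was lower with restriction than in wild type by -0.56 ± 0.16 (0.0351). It was 0.85 ± 0.15 higher with leptin than with restriction (0.00166). Without restricted arrays 2 and 3 the changes were -0.77 (0.0588), -0.57 (0.110) and 0.86 (0.0134), so 2 of the 3 calls were lost with fewer arrays while the changes stayed as large. The call against wild type was also lost without restricted array 1, 2, 3 or 5 or wild type array 2, 3 or 4 alone (changes of -0.45 to -0.60, adjusted p from 0.0513 to 0.116).

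Within an array the second set was 19.2 to 22.5% of the first in wild type and 16.9 to 21.2% in ad libitum ob/ob. It was 9.54 to 12.8% with restriction and 22.1 to 29.0% with leptin. The restricted range thus lay below all others, and the leptin range overlapped only that of wild type. Over 9749 such ratios of 2 probe sets of a gene, fitted with limma, this one fell by 0.79 ± 0.12 from ad libitum to restriction (adjusted p = 0.00334), where 0.472% of all ratios were called. It was 1.11 ± 0.11 higher with leptin than with restriction (3.58e-05; 2.39% of all ratios called) and -0.86 ± 0.12 lower with restriction than in wild type (0.00102; 2.09% called). Without restricted arrays 2 and 3 these were -0.80 (0.0355), 1.12 (7.33e-04) and -0.87 (0.00890), all still called. The call from ad libitum to restriction was lost with only those 2 groups in the fit (0.0853) and with the atrial covariate used below for Cacna1h (-0.73, 0.0618). From ad libitum to leptin it changed by 0.32 ± 0.12 (0.452), which did not pass. A ratio within an array shows that the 2 sets changed unequally and not which of them did. The values of both sets correlated with r = 0.04 over 18 arrays. The pair was singled out after its values were seen, and where its probes lie in the Cacna1c transcripts was not analysed here.

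**Figure D3:**
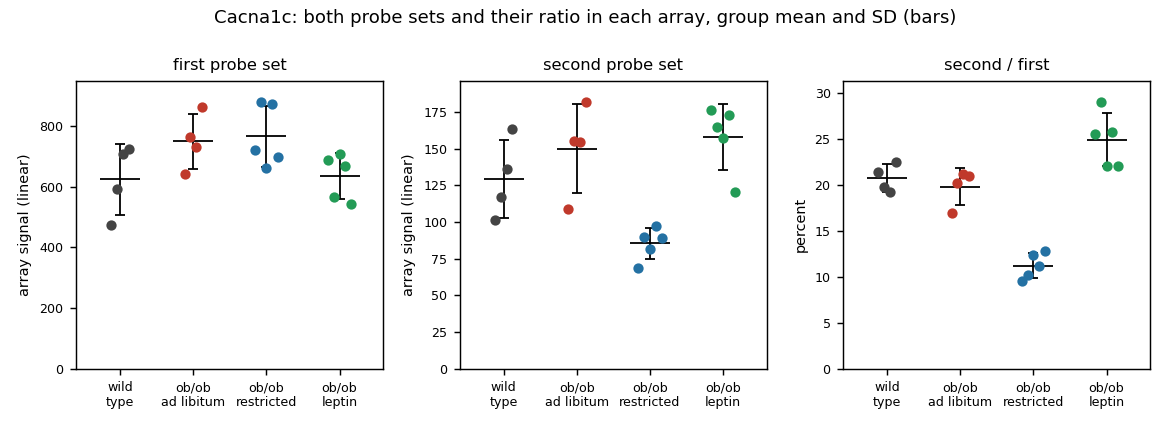
Linear signal of both Cacna1c probe sets and the second as a percent of the first (y axes) in the 4 groups (x axis); points are arrays, wide bars group means and whiskers 1 SD. The 5 restricted arrays are at 68.8 to 97.3 on the second set and at 9.54 to 12.8% in the ratio, below all other arrays.

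Markers of other cell types moved between the same groups. From restriction to leptin, 5 of 6 macrophage markers rose (summed signal 1091 to 1523 with restriction, 1809 to 2583 with leptin), as did 4 of 7 fibroblast markers (3801 to 5004, then 5058 to 6274) and 3 of 6 endothelial markers (1281 to 1577, then 1813 to 2128). The share called over all genes was 13.6%. The fibroblast marker Dcn went the other way, with its highest mean under restriction (3333, against 2878 to 3201 in the other groups). Of 12 ventricular cardiomyocyte markers 0 were called by limma in this comparison, and 0 had an unadjusted p under 0.05, with sums of 74703 to 96994 and 65615 to 87621. From ad libitum to restriction 4 of 7 fibroblast, 2 of 6 endothelial and 2 of 6 macrophage markers fell, and 1 of 6 conduction system markers fell. In the same comparison 1 of 8 smooth muscle markers rose, and 5.42% of all genes were called. From wild type to restriction, where 11.3% of all genes were called, 5 of 6 macrophage, 4 of 7 fibroblast and 1 of 6 conduction system markers fell. Rises were called for 1 of 12 ventricular cardiomyocyte, 2 of 8 smooth muscle and 1 of 7 neuronal and glial markers. In that comparison 8 of the 12 ventricular markers had an unadjusted p under 0.05 (3276 of all 13359 genes did), and the median change of the 12 was 0.26. Their summed signal was 65499 to 71197 in wild type, below all ad libitum (71392 to 84137) and restricted arrays, as was the signal of Cacnb2 and Cacng6. Of 6 tested conduction system markers 1, Smoc2, rose from restriction to leptin, as did 1 of 7 neuronal and glial markers. The part of these markers in the results on the calcium channel genes was not tested.

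Cacna1g, a T-type pore, had 22.7, 28.6, 21.0 and 29.5 in wild type and 47.6, 52.3, 20.6 and 35.2 in ad libitum ob/ob. With restriction it had 29.1, 17.4, 21.99, 13.0 and 18.7, and with leptin 31.1, 28.3, 31.6, 18.9 and 19.7. Ad libitum array 3 lay among the low values of the other groups while the other 3 ad libitum arrays were above all other arrays. The group means ran from restriction (20.04 ± 6.01, n = 5) through wild type (25.5 ± 4.24, n = 4) and leptin (25.9 ± 6.18, n = 5) to ad libitum (38.9 ± 14.2, n = 4). Neighbours in this order did not differ by the adjusted p. The change from ad libitum to restriction, -0.77 ± 0.22, missed the threshold (adjusted p = 0.0543), and without ad libitum array 3 it was -1.01 (0.0120), past it, as it was without restricted array 1 (-0.89, adjusted p = 0.0314).

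Cacna1h, the other T-type pore, had 32.4, 43.3, 42.4 and 28.6 in wild type and 37.9, 40.02, 34.9 and 37.5 in ad libitum ob/ob. With leptin it had 30.5, 30.5, 25.2, 33.2 and 33.7, and with restriction 45.1, 82.7, 109, 52.4 and 46.0. All 5 restricted arrays were above every other array, by a wide margin in arrays 2 and 3 and a narrow one in arrays 1 and 5. Cacna1h was lower with leptin than with restriction by -0.94 ± 0.19 (adjusted p = 0.00372) and higher with restriction than in wild type by 0.72 ± 0.20 (0.0280). Restriction against ad libitum gave 0.68 ± 0.20 (0.0603), which missed the threshold, and passed it without restricted array 1 (0.79, 0.0338) or 5 (0.78, 0.0411). The means of leptin (30.6 ± 3.35, n = 5), wild type (36.7 ± 7.31, n = 4) and ad libitum (37.6 ± 2.09, n = 4) did not differ by the adjusted p, and that of restriction was 67.0 ± 27.9 (n = 5). The second Cacna1h set (1427607_at), at 2.09 to 15.0 over all arrays, was too dim to be tested.

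The restricted arrays with the most Cacna1h were those with the most atrial signal. Myl7, the atrial myosin light chain, had 635, 3448, 3548, 3.58 and 159 in the 5 restricted arrays, and 2.52 to 674 elsewhere. Of 9 atrial markers 2 were called between leptin and restriction, Kcnj3 and Stard10, both lower with leptin, and Stard10 was the gene with the pattern most like that of Cacna1h (r = 0.898 over 18 arrays). The atrial marker Pam went the other way, with a mean of 449 with leptin and 346 with restriction. Restricted arrays 1, 4 and 5 had atrial sums of 4219, 2302 and 2595, with Cacna1h signals of 45.1, 52.4 and 46.0. The leptin arrays had atrial sums of 2616 to 3978 and Cacna1h signals of 25.2 to 33.7. Without restricted arrays 2 and 3, Cacna1h was lower with leptin by -0.57 (adjusted p = 0.0115), still called. Its change from wild type to restriction was then 0.36 (0.122), no longer called, and from ad libitum 0.31 (0.258). The wild type call was also lost without restricted array 2 (0.63, 0.0721), wild type array 1 (0.68, 0.0774) or wild type array 4 (0.63, 0.0901) alone. With the mean log2 atrial marker value as a covariate in all arrays the changes to leptin, from wild type and from ad libitum were -0.64 (0.0207), 0.57 (0.0269) and 0.30 (0.482). These fits do not measure the part of atrial tissue in the Cacna1h differences, which was not tested.

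**Figure D4:**
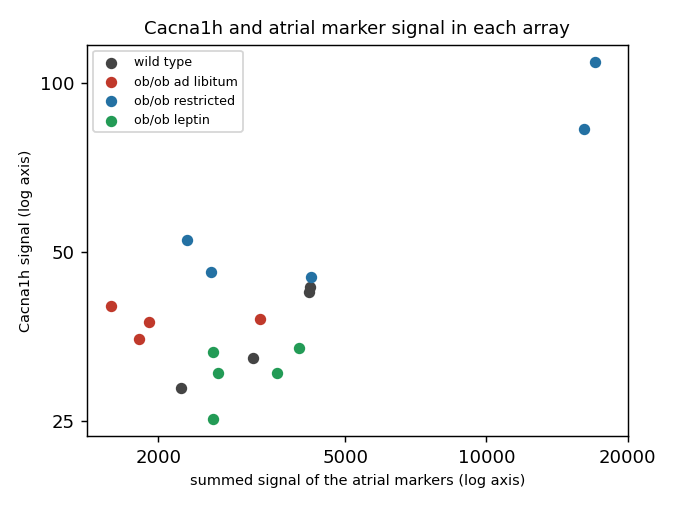
Cacna1h signal (y axis) against the summed signal of 9 atrial markers (x axis), both linear signals on log axes, 1 point per array and coloured by group. Restricted arrays 2 and 3 are at the upper right, with Cacna1h at 82.7 and 109. The other 3 restricted arrays have 45.1 to 52.4 at atrial sums of 2302 to 4219, where the other groups span 1587 to 4214.

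Cacnb2, the beta subunit of the cardiac L-type channel, had 294, 268, 306 and 335 in wild type and 435, 429, 434 and 489 in ad libitum ob/ob. The restricted arrays had 364, 396, 379, 474 and 404, and the leptin arrays 356, 339, 324, 495 and 403. No ad libitum or restricted array reached down to wild type, and 1 leptin array did. The mean was 300.5 ± 27.5 (n = 4) in wild type, 384 ± 68.9 (n = 5) with leptin, 403 ± 42.3 (n = 5) with restriction and 447 ± 28.3 (n = 4) ad libitum. The rise from wild type to restriction was 0.42 ± 0.11 (adjusted p = 0.0265), lost without restricted arrays 2 and 3 (0.45, adjusted p = 0.0675) and without restricted array 4 or wild type array 1, 2 or 3 alone (0.36 to 0.43, adjusted p from 0.0507 to 0.0918). The larger difference of ad libitum ob/ob over wild type, 0.57 ± 0.12, had an adjusted p of 0.0693, and leptin over wild type 0.33 ± 0.11 (0.384). The 3 ob/ob groups did not differ from each other by the adjusted p, with changes of -0.08 to -0.23 between them. The second Cacnb2 set (1452476_at) was also higher in all ad libitum arrays (149 to 240) than in wild type (118 to 140), by 0.64 ± 0.18 (0.193 over all probe sets), and the values of both sets correlated with r = 0.61.

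Cacna2d1, the alpha2delta subunit, had 756, 780, 809 and 815 in wild type, 751, 953, 831 and 906 in ad libitum ob/ob, 886, 883, 1001, 862 and 971 with restriction, and 705, 704, 793, 746 and 725 with leptin. Every restricted array was above every wild type and leptin array. The fall from restriction to leptin was -0.32 ± 0.07, from a mean of 921 ± 61.4 to 735 ± 36.7 (n = 5 each; adjusted p = 0.00795). Without restricted arrays 2 and 3 it was -0.30 (0.0479). Restriction over wild type (790.1 ± 27.3, n = 4) gave 0.22 ± 0.08 (0.0873), and ad libitum (860.4 ± 88.2, n = 4) differed from no group by the adjusted p.

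The other Cacna2d1 sets did not all follow. Of the 3 further sets that passed the filter, 0 were called by limma in any comparison, and 2 had an unadjusted p under 0.05 in at least 1 comparison. From restriction to leptin 1425861_x_at changed by -0.52 ± 0.20 and 1449999_a_at by -0.23 ± 0.13, the direction of the brightest set, with which they correlated at r = 0.77 and r = 0.63. The set 1440397_at changed by 0.14 ± 0.13 and correlated at r = -0.16. As a percent of the brightest set, 1440397_at was 13.8 to 22.4% in wild type and 9.15 to 13.1% with restriction, a log2 difference of -0.59 ± 0.14 that was called among the 9749 ratios (adjusted p = 0.0389). With the 4 sets that passed the filter averaged, the change of Cacna2d1 from restriction to leptin was -0.23 (0.121), which was not called. With all 5 averaged it was -0.019 (0.933), the fifth being 1441608_at, at signals of 1.68 to 17.3, which moved by 0.84.

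Cacng6, the gamma subunit, had 25.2, 17.7, 20.6 and 20.01 in wild type, 44.5, 59.7, 43.7 and 46.7 in ad libitum ob/ob, and 17.6, 17.8, 22.9, 21.9 and 26.4 with leptin. With restriction it had 38.0, 52.3, 42.6, 25.6 and 45.3. The ad libitum arrays were above all wild type and leptin arrays. The restricted arrays were above all wild type arrays and, except array 4, above all leptin arrays. The means were 20.9 ± 3.15 (n = 4) in wild type, 21.3 ± 3.69 (n = 5) with leptin, 40.8 ± 9.92 (n = 5) with restriction and 48.6 ± 7.50 (n = 4) ad libitum. Wild type and leptin, next to each other in this order, differed by 0.02 ± 0.16 (adjusted p = 0.975), and restriction and ad libitum by -0.25 ± 0.16 (0.445). Between these pairs the steps passed the test.

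The comparisons of calorie restriction with leptin and with wild type were not those for which Cacng6 had been named, but they reuse the same leptin and wild type arrays and are no independent support either. Cacng6 was lower with leptin than with restriction by -0.78 ± 0.15 (adjusted p = 0.00262), at matched food intake, and higher with restriction than in wild type by 0.80 ± 0.16 (0.00361). Without restricted arrays 2 and 3 these were -0.63 (0.0287) and 0.65 (0.0337), both still called. The rise in ad libitum ob/ob over wild type, 1.05 ± 0.17 (0.0179), missed the threshold without ad libitum array 3 (1.09, adjusted p = 0.0510) or without wild type array 2 (0.99, 0.0695). The fall with leptin from ad libitum, -1.03 ± 0.16 (0.00749), kept its call in all 9 fits that omitted 1 array.

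The second Cacng6 set (1425730_at) had 4.93, 6.57, 10.9 and 13.3 in wild type, 25.2, 67.9, 38.0 and 37.7 ad libitum, 28.7, 43.8, 30.9, 39.6 and 34.6 with restriction, and 16.8, 30.5, 17.2, 17.7 and 5.402 with leptin. Its wild type arrays were below all ad libitum and restricted arrays. Wild type signals lay near the pseudocount, and the set passed the filter only through the ob/ob groups, so its difference from wild type is given by these values alone, without a fold or test. It was lower with leptin than with restriction by -0.93 ± 0.28 (adjusted p = 0.0386 over all probe sets). Leptin against ad libitum gave -1.09 ± 0.29 (0.126), not called. Both Cacng6 sets are listed under the same source sequence, so they are 2 readings of related probes, and they correlated with r = 0.70.

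Among the 15 pairs of the 6 genes, Cacna2d1 and Cacng6 had the most similar values over the 18 arrays (r = 0.73), followed by Cacna1h and Cacna2d1 (r = 0.66). These correlations share the arrays and the group differences already described. The start regions of the most similar pair are printed because the 2 genes moved together between leptin and restriction. They come from RefSeq on GRCm38.p6, run from 250 bases before to 50 bases after the annotated start, and carry matches to a GC box in capitals. Cacna2d1 lies at chr5:15934441-15934740 and Cacng6 at chr7:3424412-3424711, both on the plus strand.
Cacna2d1: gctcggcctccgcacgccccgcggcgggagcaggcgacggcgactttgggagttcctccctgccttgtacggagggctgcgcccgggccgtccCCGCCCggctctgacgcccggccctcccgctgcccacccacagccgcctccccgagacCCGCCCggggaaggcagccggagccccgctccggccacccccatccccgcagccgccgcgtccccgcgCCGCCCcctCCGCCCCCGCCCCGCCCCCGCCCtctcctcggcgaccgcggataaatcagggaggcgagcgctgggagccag
Cacng6: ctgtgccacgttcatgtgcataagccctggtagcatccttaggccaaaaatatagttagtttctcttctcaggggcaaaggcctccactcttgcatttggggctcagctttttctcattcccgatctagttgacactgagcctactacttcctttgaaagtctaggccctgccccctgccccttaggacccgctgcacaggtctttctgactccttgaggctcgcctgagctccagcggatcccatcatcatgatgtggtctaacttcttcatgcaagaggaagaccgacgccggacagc
The Cacna2d1 region was 80% G and C and held 7 matches to the GC box GGGCGG, counting both strands and overlaps. The Cacng6 region was 52.7% G and C, equal to the median of all 32851 such regions, and held no match. A GC box was present in 35.66% of all regions. Neither region held the E-box CACGTG (7.15% of all regions), CCAAT (37.41%), TATAAA (13.62%), the cAMP response element TGACGTCA (1.79%) or the direct repeat named DR1 (0.03957%). These letters were thus not shared by the pair. Entries were found for 4 of the 6 genes, with 3 starts for Cacna1c and 2 for Cacnb2.

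Of the 20 other genes of voltage-gated calcium channel subunits, 18 had a probe set and 13 passed the filter, among them 5 pores and 8 auxiliary subunits. Of the 5 pores 0 were called by limma in any of the 6 comparisons (0.00749 to 13.6% of all genes were), and 1 had an unadjusted p under 0.05. That was Cacna1s, the pore of skeletal muscle, in the 3 comparisons with ad libitum ob/ob, where its mean was 75.8 against 55.3 to 62.1 in the other groups (adjusted p from 0.231 to 0.259). Cacna1d, the L-type pore of pacemaker cells, had means of 33.0 in wild type, 42.7 ad libitum, 42.9 with restriction and 27.7 with leptin, with no call. The median change of the 5 pores from restriction to leptin was -0.52 and that of the 8 auxiliary subunits -0.44, against -0.025 over all genes. Medians with leptin were negative in its other comparisons too. Against ad libitum they were -0.38 for the pores and -0.34 for the auxiliary subunits (-0.012 over all genes). Against wild type they were -0.28 and -0.51 (-0.0056 over all genes).

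Among the 8 auxiliary genes 1 call was made, a fall of Cacna2d2, another alpha2delta subunit, from restriction to leptin. Its signal was 60.3, 66.9, 121, 26.9 and 36.7 with restriction and 34.3, 10.5, 34.2, 15.4 and 14.4 with leptin. Wild type arrays had 36.6 to 43.9 and ad libitum arrays 34.4 to 59.2. The groups overlapped, and restricted array 3 was highest. The change was -1.27 ± 0.32 (adjusted p = 0.0147). Without restricted arrays 2 and 3 it was -0.83 (0.119), no longer called.

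**Figure D5:**
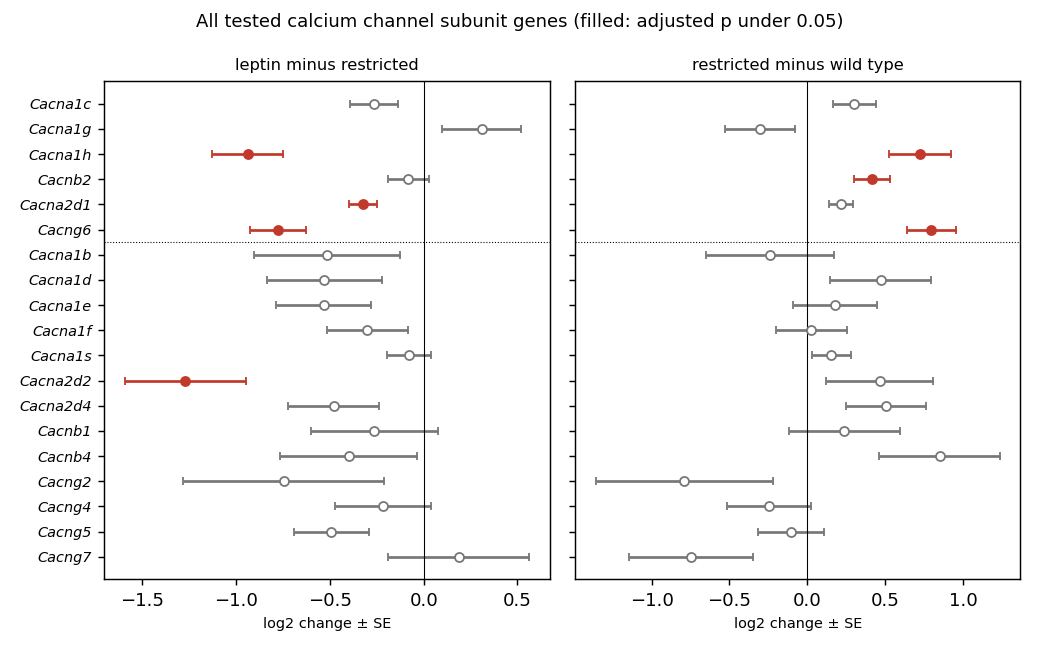
Log2 change (x axis) of all 19 tested calcium channel subunit genes (y axis; the 6 genes described here above the dotted line) from restriction to leptin and from wild type to restriction, with whiskers of 1 SE; filled red points have an adjusted p under 0.05. Cacna2d2, at -1.27, is the only filled point below the dotted line.

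Among proteins that regulate the L-type channel few calls were made. Of 27 such genes, among them calmodulins, calmodulin kinases, protein kinase A subunits, its anchoring proteins and the small GTPases that restrain the channel, 20 were tested. A single one was called in the 6 comparisons, in leptin against restriction, where 13.6% of all genes were called. Rrad, a small GTPase that inhibits the L-type channel through its beta subunit, rose from restriction (265, 432, 344, 421 and 409) to leptin (446, 744, 457, 553 and 732). All leptin arrays were above all restricted arrays. The change was 0.63 ± 0.18 (adjusted p = 0.0275), and it was 0.67 (0.0734) without restricted arrays 2 and 3. Without restricted array 1 or 3 or leptin array 2 or 5 alone it was 0.51 to 0.60, with an adjusted p from 0.0601 to 0.0763. Wild type had 386 to 591 and ad libitum 352 to 528, within or between the other ranges. Calcineurin, NFAT and MEF2 genes encode proteins that respond to calcium entry, an activity that transcript signals do not measure. They were tested in full (13 of 13), and 0 were called by limma in any comparison (0.00749 to 13.6% of all genes were). Per comparison, 0 to 5 had an unadjusted p under 0.05, with medians of -0.03 to 0.07. The 5 were in leptin against restriction, where 3597 of all 13359 genes had such a p.

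For each of the 6 genes the 2 tested genes with the most similar values over 18 arrays, by Pearson's r of log2 signals, were taken from all genes. They were Rnf40 (0.915) and Ptpn21 (0.865) for Cacna1c, Nde1 (0.783) and Arl15 (0.725) for Cacna1g, and Stard10 (0.898) and Hamp (0.883) for Cacna1h. Hamp had a mean of 255 with restriction and of 31.4 to 49.8 in the other groups. For Cacnb2 they were Tspan3 (0.885) and Ldha (0.839), for Cacna2d1 Ankrd50 (0.937) and Dhrs11 (0.870), and for Cacng6 Mark2 (0.857) and Ddit4 (0.855). Ddit4, an inhibitor of the growth kinase mTORC1, had means of 737 in wild type, 1622 ad libitum, 1234 with restriction and 547 with leptin, the same order as Cacng6 except that leptin lay below wild type. These are the highest of all coefficients with tested genes and describe likeness across arrays that include the group differences.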

How the data were processed

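Ventricular RNA of 18 samples was measured on Affymetrix mouse arrays. The authors deposited MAS5 signals, a linear intensity for each probe set, per the submitters' processing notes. The mean signal of every array, after the top and bottom 2% are trimmed, was 100.001, so arrays had been scaled to a common level. Of 45101 probe sets, 64 were controls, 932 had several symbols and 9160 were not listed in the platform annotation. The 20th percentile of all signals (5.13) was added before log2, and probe sets with a mean under the 40th percentile (4.36 on the log2 scale) were left out. Limma 3.58.1 (R 4.3.3) fitted all 4 groups without a replicate term, on 1 probe set per gene (13359 genes), on all 23108 probe sets across the arrays, and on 9749 ratios. Symbols were checked through Entrez numbers for 34741 of 34945 sets, and 0 changed. The code was tested on simulated data. The genes and the lists were chosen with earlier results of these data known. Named were all 6 genes and their sets, the called genes of other lists (at most 4 per comparison), the 2 nearest patterns per gene and markers given beside a result. Replicate numbers were shared between groups. The deviations of same-numbered arrays from their group means correlated at -0.182 to 0.345 (25 pairs, 1 over 0.1), so the numbers were not taken as pairing.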

Additional observations from a re-analysis of the deposited data

Results flagged for a closer look

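In 48 groups of arrays (12 tested probe sets in 4 groups), 2 had an array far from the others by Dixon's criterion, where chance gives about 1 in 20. Restricted array 1 had a signal of 240 on the second Cacnb2 set, while the other 4 restricted arrays had 139 to 158, and its value on the first Cacnb2 set was the lowest of its group. Ad libitum array 4 had 489 on the first Cacnb2 set, with the other 3 between 429 and 435.

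The effects of leptin and of restriction, each against ad libitum feeding, differed from each other in 5 results, tested by limma as leptin minus restriction. The log2 differences were -0.94 for Cacna1h, -0.32 for Cacna2d1, -0.78 for Cacng6, 0.85 for the second Cacna1c probe set and 1.11 for its ratio to the first set. The first 3 are lower with leptin and the last 2 are higher. Against ad libitum, Cacng6 changed by -1.03 with leptin and -0.25 with restriction, and the second Cacna1c set by 0.08 and -0.76. Restricted arrays 2 and 3, with high atrial signal, move with the Cacna1h difference, as their values beside it show.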

How the results depend on the processing

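The count of called genes among the 6 was 1 between ad libitum ob/ob and wild type, and it was 2 with a pseudocount of 32, after quantile normalization, with the mean of all probe sets or of those that passed the filter, with a trended and robust eBayes and with the replicate number as a block (the numbers did not pair the samples), each time through Cacnb2. Leaving out 1 array gave 0 to 1, with 0 without ad libitum array 3 or wild type array 2. Restriction against ad libitum gave 0, and 1 with a pseudocount of 32 or quantile normalization (Cacna1g), and 0 to 2 without 1 array. Leptin against restriction gave 3, and 1, Cacng6, with the mean of all probe sets, which takes in 2 sets too dim to be tested. There Cacna1h changed by -0.54 (adjusted p = 0.0524) and Cacna2d1 by -0.019 (0.933). With the mean of the sets that passed the filter, an alternative added after seeing the data, 2 were called, Cacna1h (-0.94) and Cacng6 (-0.85), and Cacna2d1 was not (-0.23, 0.121). Restriction against wild type gave 3, and 1 without restricted arrays 2 and 3. Over the 12 settings other than leaving out 1 array, Cacna1h kept its call in 9 and Cacnb2 in 11. Cacna2d1 stayed without a call in 11 of the 12 and had a lowest limma adjusted p of 0.0492. The count was thus not 3 in all of these settings. Without 1 array it was 1 to 3, with 1 without wild type array 1. The counts for leptin against ad libitum (1) and against wild type (0) were the same in every setting run.

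Signs turned only for changes that were not called. With the mean of all probe sets, and with that of the sets that passed the filter, Cacna1c changed by -0.37 (restriction minus ad libitum), 0.29 (leptin minus restriction) and -0.13 (restriction minus wild type). With all sets Cacna2d1 changed by 6.73e-04 (leptin minus ad libitum) and 0.023 (leptin minus wild type). With the replicate block Cacng6 changed by -0.033 (leptin minus wild type). Without 1 array the ranges were -0.050 to 0.12 for Cacna1h (ad libitum minus wild type), -0.057 to 0.18 for the second Cacna1c set (leptin minus ad libitum) and -0.043 to 0.10 for Cacna1c (restriction minus ad libitum), and for leptin minus wild type -0.089 to 0.11 for Cacna1c, -0.065 to 0.093 for Cacna1g and -0.045 to 0.10 for Cacng6. The cause was not tested.

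Settings other than leaving out 1 array ended these calls. For restriction against wild type they were Cacna1h (3 settings), Cacnb2 (1) and the second Cacna1c set (4). For restriction against ad libitum they were the second Cacna1c set (2) and its ratio to the first (2, adjusted p up to 0.0853). For leptin against restriction they were Cacna1h (1), Cacna2d1 (2), Cacna2d2 (3) and Rrad (3). Leaving out 1 array ended calls of Cacng6 for ad libitum against wild type, of Cacna1h, Cacnb2 and the second Cacna1c set for restriction against wild type, and of Rrad. Cacna2d2 has no value with the mean of probe sets, where it falls under the filter. Of the changes of single genes and of the Cacna1c sets, 524 under other settings and 413 without 1 array kept their direction and side of the threshold. Under other settings 21 lost a call, 9 gained one and 9 turned sign, and without 1 array these numbers were 20, 4 and 15. Signals near the pseudocount, such as those of Cacna1g and Cacng6, carry less precise changes, and array number limits precision. The second Cacna1c set and its tests were added after seeing the data.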
